A study of Mus musculus with 21 samples.

Results

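The genes that write, maintain and remove methylation of cytosine in DNA were followed in RNA of B6 germ cells. They comprise 9 of the 37620 genes in the deposited table, chosen by symbol: the methyltransferases Dnmt1, Dnmt3a and Dnmt3b, the cofactors Dnmt3l and Uhrf1, the dioxygenases Tet1, Tet2 and Tet3, and the glycosylase Tdg. All 9 were found. The measurement is RNA-seq of enriched germ cells from testes of C57BL/6J (B6) males at 12 days post-partum (dpp), obtained by digestion with collagenase and trypsin and labelled spermatocytes. All samples are wild type and untreated by their labels. Their labels form 4 sample numbers, 186wt and 343wt, 444wt and 456wt, and each number has 3 libraries (12 libraries in all), and the labels name no treatment, genotype or batch that differs between the numbers. The 9 other samples of the series (Affinity-seq, ChIP-seq and inputs) were not analysed here.

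Levels are FPKM, the fragments of a transcript scaled to its length and to the mapped fragments of the library, so they can be compared between genes. A mean ± SD is over the 4 number means (n = 4). Tests compare the 4 numbers through the spread of the 3 libraries of each. The paper states that RNA came from 4 replicates of germ cells, as many as there are numbers. The 3 libraries of a number may therefore all come from 1 RNA, so the p-values may measure technical spread only. The depth, estimated from the steps between low FPKM values, was 13.1 to 17.7 M (mega) fragments per library.

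DNA methylation in mammals sits mostly on CpG dinucleotides. DNMT1, guided by UHRF1 to hemimethylated DNA behind the replication fork, copies the pattern to the new strand. DNMT3A and DNMT3B set methylation de novo, with the catalytically inactive DNMT3L as their partner, and in male germ cells of the mouse most of this happens before birth, in arrested prospermatogonia. TET enzymes oxidise 5-methylcytosine, and TDG excises the oxidised bases so that base excision repair can restore cytosine. By 12 dpp the first germ cells have entered meiosis beside dividing spermatogonia.

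The maintenance pair, Dnmt1 and Uhrf1, and the de novo enzyme Dnmt3a had the highest levels. The highest member was Dnmt1 with 83.9 ± 14.2 FPKM, above 97.5% of all genes in the table. Uhrf1 followed with 58.4 ± 12.7 FPKM, Dnmt3a with 45.1 ± 3.40 FPKM, Tdg with 32.3 ± 1.98 FPKM, Dnmt3b with 29.8 ± 6.52 FPKM and Tet3 with 20.2 ± 1.93 FPKM. The other 3 were near 1 or 2 FPKM: Tet2 had 2.48 ± 0.42 FPKM, Tet1 had 1.89 ± 0.459 FPKM and Dnmt3l had 1.13 ± 0.259 FPKM. No member was at 0 in any library. The gap between Tet3 and Tet2 was the widest step in the order, 8.16-fold, and separated all 12 libraries.

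In this order 6 of the 8 neighbouring pairs kept their sequence in all 4 numbers. Tdg was above Dnmt3b in 2 of 4 numbers and in 7 of 12 libraries, and Tet2 above Tet1 in the same 2 of 4 numbers and in 7 of 12 libraries, so neither pair can be ranked. Without the libraries of 186wt the mean of Dnmt3b was 31.52 FPKM and that of Tdg 31.50 FPKM, which exchanged their places. With 4 numbers a paired exact test cannot go below p = 0.125, and none was used for the order. Of the summed FPKM of the 9 genes, Dnmt1 held 30.4 ± 1.52%, Uhrf1 21.04 ± 2.15%, Dnmt3a 16.5 ± 1.22% and Dnmt3l 0.407 ± 0.0474% (SD, n = 4).

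**Figure D1:**
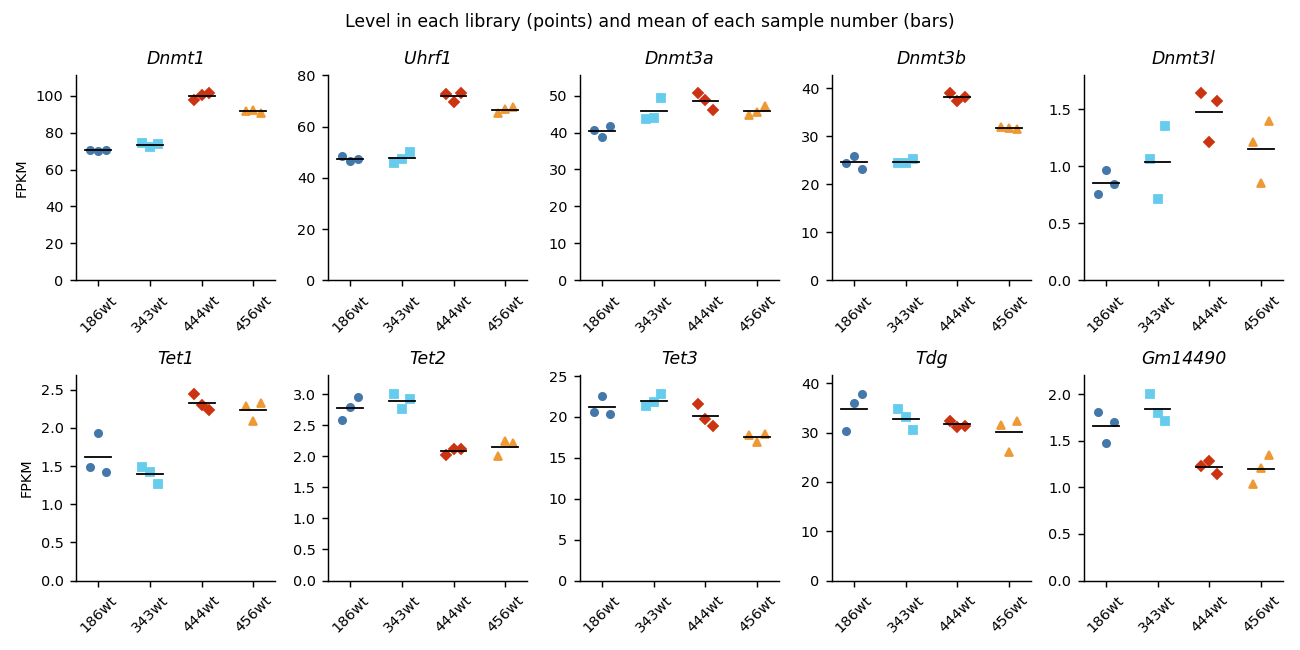
FPKM (vertical axes, from 0) of the 9 genes and of Gm14490, a Dnmt3b copy, in each of the 12 libraries (points, 3 per sample number on the horizontal axes), with the mean of each number as a bar. Dnmt1, Uhrf1, Dnmt3b and Tet1 were higher in every library of 444wt and 456wt than in any of 186wt and 343wt. Tet2 and Gm14490 were lower in every library of 444wt and 456wt than in any of the others. No label pairs the numbers in this way, and the share of all genes so divided was not counted.

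Whether the sample numbers differ was tested with limma for the 20795 genes whose mean reached 0.1 FPKM, as an F-test over the 4 numbers on log2(FPKM + 0.1) with adjustment by Benjamini-Hochberg over all genes tested, and as the difference of each number from the mean of the other 3. The F-test passed an adjusted p of 0.05 in 58.2% of all genes, so most genes differed between the numbers, and 7 of the 9 methylation genes did (all but Dnmt3l and Tdg). All 9 had a mean of at least 1 FPKM, and among the 14348 genes at that level 75.8% passed, so the share of the 9 was near that of genes of like expression. The median range over the 4 numbers was 0.50 on the log2 scale for the 9 genes, 0.54 for all genes tested and 0.42 for those of at least 1 FPKM. Of all genes, 14.8% were higher and 21.9% lower in 186wt, 14.5% higher and 25.6% lower in 343wt, 26.5% higher and 17.8% lower in 444wt, and 22.9% higher and 13.6% lower in 456wt. Among genes of at least 1 FPKM these shares were 20.2% and 29.5% in 186wt, 19.7% and 33.8% in 343wt, 35.4% and 23.1% in 444wt, and 29.3% and 18.5% in 456wt. Of the 9, the counts of higher and lower genes were 1 and 4 in 186wt, 2 and 4 in 343wt, 5 and 1 in 444wt, and 4 and 2 in 456wt. The median log2 difference of the 9 genes was -0.26 in 186wt (all genes tested, -0.05), -0.14 in 343wt (-0.10), 0.36 in 444wt (0.08) and 0.06 in 456wt (0.05). With each library centred on its own median, the share of higher among all called genes went from 36.1 to 47.3% in 343wt and from 62.8 to 52.6% in 456wt, and the number of called members in each of the 4 numbers did not change.

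**Figure D2:**
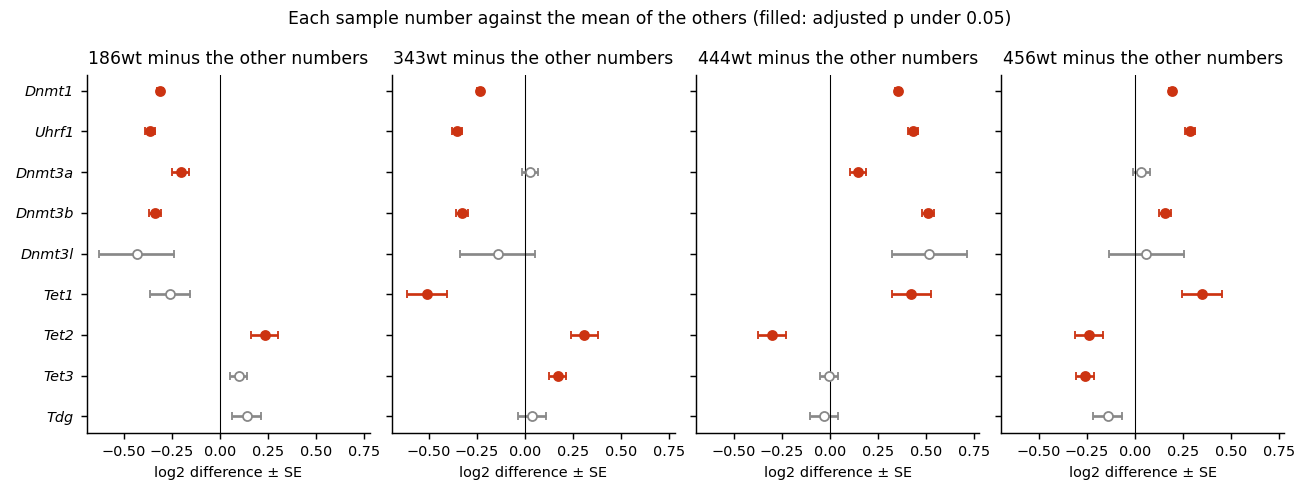
Log2 difference of each sample number from the mean of the other 3 (horizontal axes, ± SE from limma) for the 9 genes (vertical axis); filled points have an adjusted p under 0.05. Dnmt1, Uhrf1 and Dnmt3b lay below 0 in 186wt and 343wt and above 0 in 444wt and 456wt, Tet2 lay on the opposite side in all 4, and all 4 values of Dnmt3l and Tdg had open points.

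Dnmt1 (ENSMUSG00000004099, chr9:20711650-20757317 on the minus strand of NCBI build 37) had 70.2, 70.4 and 70.9 FPKM in the libraries of 186wt, 72.4, 73.7 and 74.5 in 343wt, 98.0, 100.3 and 101 in 444wt, and 90.7, 91.9 and 92.5 in 456wt. The 4 numbers did not overlap with one another, and the libraries of a number lay close together, with a mean CV of 1.15%. Counting alone gives a CV of 1.195% for the median of about 7000 fragments per library that this level implies on its 5.264-kb transcript. The log2 difference from the other numbers was -0.31 ± 0.02 (SE) in 186wt and -0.23 ± 0.02 in 343wt, against 0.36 ± 0.02 in 444wt and 0.19 ± 0.02 in 456wt. The adjusted p of the F-test was 2.52e-09, the smallest among the 9 genes, and 444wt was 1.42-fold above 186wt.

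Uhrf1 (ENSMUSG00000001228, chr17:56442744-56462909, plus strand), whose protein recognises hemimethylated CpG, had 46.5, 47.5 and 48.3 FPKM in 186wt, 45.8, 47.4 and 49.9 in 343wt, 69.8, 72.7 and 73.0 in 444wt, and 65.2, 66.9 and 67.7 in 456wt. Here 186wt and 343wt overlapped, while all libraries of 444wt were above all of 456wt. The log2 difference was -0.36 ± 0.03 in 186wt, -0.36 ± 0.03 in 343wt, 0.43 ± 0.03 in 444wt and 0.29 ± 0.03 in 456wt, and the adjusted p of the F-test was 2.93e-08. The ratio of Uhrf1 to Dnmt1 was 0.673 in 186wt, 0.649 in 343wt, 0.719 in 444wt and 0.726 in 456wt. It differed between the numbers by an exact permutation test over all 15400 divisions of the 12 libraries into 4 sets of 3 (p = 0.00481, adjusted over 5 ratios 0.00801), and the CV over the 4 numbers was 21.7% for Uhrf1 and 16.9% for Dnmt1. A pseudogene on the X chromosome, Gm5648, matches 44.3% of the longest Uhrf1 transcript at 98.3% identity, but it was listed at 0 in all libraries of 186wt, 343wt and 444wt, and its highest value was 0.02 FPKM.

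The promoters of the maintenance pair are shown because both genes moved together and because the motif that E2F factors bind, found at many genes of DNA replication, was looked for in them. RefSeq gives windows from 250 bases before to 50 after each annotated start (build GRCm38.p6), 16 in all for the 9 genes, and the data do not say which start was used. Capitals mark matches to TTTGGCGC, TTTCGCGC or TTTCCCGC for E2F and to GCGCATGC for NRF1, on either strand. Start 3 of the 3 Dnmt1 starts (chr9:20952574-20952873, minus strand) and start 2 of the 2 Uhrf1 starts (chr17:56304063-56304362, plus strand) read as follows.
Dnmt1, start 3: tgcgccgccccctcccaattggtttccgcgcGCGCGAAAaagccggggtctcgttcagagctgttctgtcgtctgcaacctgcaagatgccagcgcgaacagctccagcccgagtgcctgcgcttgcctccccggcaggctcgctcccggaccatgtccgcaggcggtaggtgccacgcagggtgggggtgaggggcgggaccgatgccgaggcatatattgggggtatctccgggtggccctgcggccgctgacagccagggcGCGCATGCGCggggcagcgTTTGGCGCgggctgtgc
Uhrf1, start 2: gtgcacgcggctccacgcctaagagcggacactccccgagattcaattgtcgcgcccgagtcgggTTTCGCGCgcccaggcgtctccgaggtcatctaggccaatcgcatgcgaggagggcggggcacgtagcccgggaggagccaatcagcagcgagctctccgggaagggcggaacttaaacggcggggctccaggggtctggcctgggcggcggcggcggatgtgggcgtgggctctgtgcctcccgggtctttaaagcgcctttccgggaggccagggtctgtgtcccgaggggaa
The Dnmt1 window held an E2F match at base -219 on the minus strand and another at base 33 after the start. In the same window the palindrome GCGCATGCGC gave an NRF1 match on each strand, at bases 14 and 16. The Uhrf1 window held an E2F match at base -185. Any of the 3 E2F motifs was found in 1.84% of all 32851 windows and the NRF1 motif in 2.71%. Each of these motifs contains a CpG, and their shares among windows of like CpG number were not counted. Among the 9 genes, no other window had an E2F match, and a second Dnmt1 start had the same palindrome, with NRF1 matches at bases 29 and 31. Both windows held 33 CpG, more than 91.4% of all windows (median 7), whereas the start of Dnmt1 farthest upstream held 2.

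**Figure D3:**
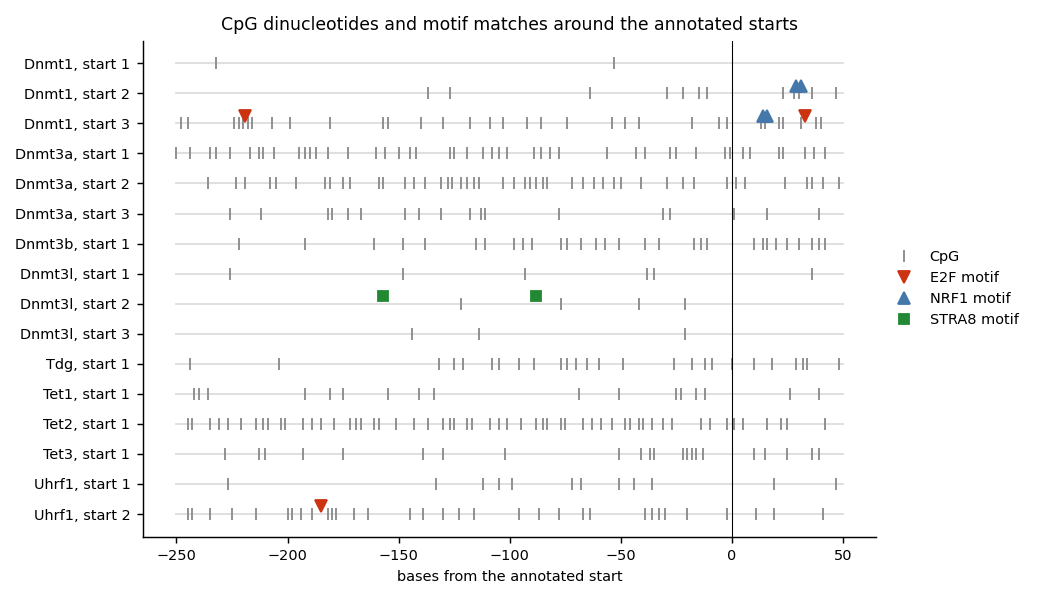
Positions of CpG dinucleotides (grey ticks) and of motif matches (symbols) in the 16 RefSeq windows of the 9 genes, in bases from each annotated start (horizontal axis); starts are numbered from the 5′ side. E2F matches were found at 1 start each of Dnmt1 and Uhrf1, and the CpG number ran from 2 (Dnmt1, start 1) to 57 (Tet2).

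The de novo enzymes split. The CV over the 4 numbers was 21.9% for Dnmt3b and 7.52% for Dnmt3a. Dnmt3b (ENSMUSG00000027478, chr2:153475186-153513466, plus strand) had 23.2, 24.5 and 25.9 FPKM in 186wt, 24.3, 24.4 and 25.3 in 343wt, 37.3, 38.2 and 38.9 in 444wt, and 31.6, 31.8 and 31.9 in 456wt. The numbers 186wt and 343wt overlapped, and 444wt and 456wt stood apart from both and from each other. Its log2 difference was -0.34 ± 0.03 in 186wt, -0.33 ± 0.03 in 343wt, 0.51 ± 0.03 in 444wt and 0.16 ± 0.03 in 456wt, with an adjusted F-test p of 1.11e-07. The call in 456wt was lost without all libraries of 186wt (adjusted p = 0.158) or of 343wt (0.283).

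Dnmt3a (ENSMUSG00000020661, chr12:3806007-3914443, plus strand) had 38.8, 40.7 and 41.9 FPKM in 186wt, 43.7, 44.0 and 49.5 in 343wt, 46.1, 48.9 and 50.7 in 444wt, and 44.6, 45.6 and 47.2 in 456wt. Only 186wt did not overlap with any other number. The log2 difference was -0.21 ± 0.04 in 186wt (adjusted p = 0.00235) and 0.14 ± 0.04 in 444wt (0.0154). The adjusted F-test p was 0.00567 and became 0.300 without the libraries of 186wt, and the call in 444wt was lost without its first (adjusted p = 0.0909) or second library (0.0572), or without the libraries of 186wt (0.171). The ratio of Dnmt3b to Dnmt3a was 0.606 in 186wt, 0.539 in 343wt, 0.786 in 444wt and 0.693 in 456wt, and it differed between the numbers (exact permutation test, p = 0.00026, adjusted 0.000649). Per length, Dnmt3a exceeded Dnmt3b in all 12 libraries.

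The promoter of Dnmt3b (chr2:153649199-153649498, plus strand, GRCm38.p6) is given beside those of the maintenance pair, since the gene moved with them, and it had no match to any motif searched.
Dnmt3b, start 1: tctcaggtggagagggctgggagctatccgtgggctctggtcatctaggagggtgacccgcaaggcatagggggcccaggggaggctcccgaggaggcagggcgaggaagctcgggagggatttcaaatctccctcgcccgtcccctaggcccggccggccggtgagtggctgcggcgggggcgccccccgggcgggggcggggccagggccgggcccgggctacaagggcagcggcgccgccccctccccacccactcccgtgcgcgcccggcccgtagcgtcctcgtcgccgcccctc
It held 30 CpG, more than 88.3% of all windows. The 3 Dnmt3a windows held 46, 47 and 18 CpG and no motif match.

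Dnmt3l (ENSMUSG00000000730, chr10:77504692-77526367, plus strand), needed for de novo methylation in prospermatogonia, was the lowest of the 9. Its libraries had 0.76, 0.84 and 0.97 FPKM in 186wt, 0.71, 1.06 and 1.35 in 343wt, 1.21, 1.57 and 1.64 in 444wt, and 0.85, 1.21 and 1.40 in 456wt. The numbers overlapped except that all libraries of 444wt were above all of 186wt. These values stand for about 20 to 46 fragments per library on the longest transcript of 1.822 kb. The mean CV among libraries of a number was 20.8%, and counting alone gives 17.5% at the median of about 32 fragments. The F-test did not pass (adjusted p = 0.105, and 0.0466 without the libraries of 343wt). The log2 difference in 444wt was 0.52 ± 0.19 with an adjusted p of 0.0506, on the edge of the threshold: over all alternatives it ran from 0.0258 to 0.177, and it passed without the third library of 343wt (0.0258), the second of 444wt (0.0468) or the third of 456wt (0.0391), and without all libraries of 343wt (0.0462) or of 456wt (0.0315). In 186wt the value was -0.43 ± 0.19 (adjusted p = 0.109, 0.0401 without the second library of 343wt, and 0.0358 without all 3 of that number). The ratio of Dnmt3l to Dnmt3a was 0.0249 ± 0.00401 (SD, n = 4), and the exact permutation test did not separate the numbers (p = 0.273, adjusted 0.273). On its opposite strand Aire overlaps 1664 bases of the gene and had a mean of 0.127 FPKM. Of the 3 Dnmt3l starts, which held 6, 4 and 3 CpG, the second had 2 matches, at bases -157 and -88, to CNCCTCAG, a motif of the meiotic inducer STRA8 that 7.94% of all windows hold.

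Gm14490 (ENSMUSG00000082079, chr2:153522388-153555641, plus strand) lies 8.92 kb beyond the end of Dnmt3b. It is a pseudogene in the annotation of these data and carries in later annotations the name Dnmt3c, a de novo methyltransferase of rodents that acts on young retrotransposons in the male germ line. It had 1.48, 1.70 and 1.81 FPKM in 186wt, 1.72, 1.80 and 2.01 in 343wt, 1.14, 1.23 and 1.29 in 444wt, and 1.04, 1.21 and 1.35 in 456wt. All libraries of 186wt and 343wt were above all those of 444wt and 456wt, opposite to Dnmt3b. The adjusted F-test p was 0.00454 (0.00192 to 0.0473 over the alternatives). The log2 difference was 0.43 ± 0.11 in 343wt (adjusted p = 0.00791), -0.31 ± 0.11 in 444wt (0.0341) and -0.35 ± 0.11 in 456wt (0.0246). Leaving out single libraries ended each of these 3 calls, with adjusted p of 0.0503 in 343wt without its first library, up to 0.127 in 444wt without the third of its libraries, and up to 0.134 in 456wt without its first. Without all libraries of 343wt the adjusted p was 0.271 in 444wt and 0.204 in 456wt, and 186wt passed (0.0207). Gm14490 matches Dnmt3b over 74.5% of its 2.218-kb transcript at 93.3% identity, with identical runs of up to 287 bases, so its 46 or so fragments per library are uncertain where reads could fit both genes. It made up 3.10% of the summed FPKM of both genes in 444wt, 3.64% in 456wt, 6.35% in 186wt and 6.95% in 343wt.

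Among the dioxygenases, Tet3 was 8.16-fold above Tet2. The overall mean of Tet2 was 1.31-fold that of Tet1, but Tet1 had the higher mean in 444wt and 456wt. The 3 genes differed between the numbers in 3 ways. Tet1 (ENSMUSG00000047146, chr10:62267318-62361866, minus strand) had 1.42, 1.49 and 1.93 FPKM in 186wt, 1.27, 1.42 and 1.49 in 343wt, 2.23, 2.30 and 2.45 in 444wt, and 2.09, 2.29 and 2.32 in 456wt. Every library of 444wt and 456wt was above every library of the other numbers. The log2 difference was -0.51 ± 0.10 in 343wt (adjusted p = 0.00195), 0.42 ± 0.10 in 444wt (0.00575) and 0.35 ± 0.10 in 456wt (0.0206), and the adjusted F-test p was 0.00107. The call in 456wt was lost without its first (adjusted p = 0.0771) or the third library (0.0829). Without all libraries of 343wt, the calls in 444wt (0.0803) and 456wt (0.232) were both lost. The difference of -0.26 ± 0.10 in 186wt (0.0717) passed without its second library (0.0134) or without the libraries of 343wt (0.00683).

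Tet2 (ENSMUSG00000040943, chr3:133126643-133207354, minus strand) ran the other way. It had 2.59, 2.80 and 2.95 FPKM in 186wt, 2.76, 2.92 and 3.01 in 343wt, 2.02, 2.11 and 2.11 in 444wt, and 2.0, 2.22 and 2.25 in 456wt. Every library of 444wt and 456wt was below every library of the other numbers. The log2 difference was 0.23 ± 0.07 in 186wt (adjusted p = 0.0266), 0.31 ± 0.07 in 343wt (0.0050), -0.30 ± 0.07 in 444wt (0.00514) and -0.24 ± 0.07 in 456wt (0.0232), with an adjusted F-test p of 0.00124. The call in 186wt was lost without its second (0.0806) or the third library (0.122), and that in 456wt without its first (0.1197). Each of the 4 calls was also lost without all libraries of some other number: 343wt without 444wt (0.0579), 444wt without 343wt (0.0677), 186wt without 444wt (0.2197) or 456wt (0.138), and 456wt without 186wt (0.122) or 343wt (0.225).

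Tet3 (ENSMUSG00000034832, chr6:83312367-83391672, minus strand), the dioxygenase of the zygote, had 20.3, 20.7 and 22.6 FPKM in 186wt, 21.3, 21.8 and 22.9 in 343wt, 18.9, 19.8 and 21.6 in 444wt, and 16.95, 17.79 and 17.96 in 456wt. Only 456wt stood apart, below all other libraries. Its log2 difference was -0.26 ± 0.05 (adjusted p = 0.0008), that of 343wt was 0.17 ± 0.05 (0.0106, 0.0649 without the third of its libraries, and 0.191 without all libraries of 456wt), and 186wt, at 0.10 ± 0.05 (0.126), passed without the first library of 444wt (0.0489) or all those of 343wt (0.0215). The adjusted F-test p of 0.00176 became 0.199 without the libraries of 456wt.

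The ratio of Tet1 to Tet3 was 0.0762 in 186wt, 0.0633 in 343wt, 0.116 in 444wt and 0.127 in 456wt, and its p of 6.49e-05 is the smallest that the exact permutation test can give (adjusted 0.000325). The ratio of Tet2 to Tet3 was 0.131, 0.132, 0.104 and 0.123 in the same order (exact permutation test, p = 0.0201, adjusted 0.0251). This call rested on 444wt: the adjusted p became 0.138 without its first library, 0.0507 without its second and 0.679 without all 3.

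The promoters of Tet1 (chr10:62887275-62887574, minus strand) and Tet2 (chr3:133544341-133544640, minus strand, both GRCm38.p6) are shown as those of the 2 dioxygenases whose levels went in opposite directions.
Tet1, start 1: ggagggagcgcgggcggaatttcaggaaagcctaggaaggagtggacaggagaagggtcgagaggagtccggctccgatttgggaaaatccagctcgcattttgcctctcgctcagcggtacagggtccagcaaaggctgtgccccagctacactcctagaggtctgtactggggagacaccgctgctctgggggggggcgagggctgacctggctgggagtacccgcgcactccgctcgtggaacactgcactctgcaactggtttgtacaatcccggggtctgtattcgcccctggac
Tet2, start 1: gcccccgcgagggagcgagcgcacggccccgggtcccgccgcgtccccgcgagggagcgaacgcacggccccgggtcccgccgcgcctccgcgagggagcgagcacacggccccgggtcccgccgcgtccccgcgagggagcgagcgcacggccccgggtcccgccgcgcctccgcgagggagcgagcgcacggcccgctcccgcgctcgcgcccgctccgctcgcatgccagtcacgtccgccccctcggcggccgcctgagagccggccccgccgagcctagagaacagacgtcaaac
The Tet2 window held 57 CpG, more than 99.8% of all windows, against 17 CpG in that of Tet1 and 22 in that of Tet3. None of the 3 had a match to a motif searched.

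Tdg (ENSMUSG00000034674, chr10:82092573-82113544, plus strand) had 30.4, 35.9 and 37.9 FPKM in 186wt, 30.6, 33.1 and 34.8 in 343wt, 31.2, 31.4 and 32.4 in 444wt, and 26.1, 31.6 and 32.4 in 456wt. All 4 numbers overlapped. The F-test did not pass (adjusted p = 0.251, 0.0533 to 0.570 over the alternatives). The log2 difference of 186wt was 0.14 ± 0.07 (adjusted p = 0.178) and passed, at 0.23, without its first library (0.0331). Its libraries spread more than those of similar genes: the CV was 11.2% in 186wt and 11.3% in 456wt, above 97.3% and 98.3% of the 3525 genes with a mean of 20 to 50 FPKM, but 2.08% in 444wt, where 27.7% of these genes had a lower CV. Counting alone gives 2.41% at the median of about 1720 fragments. Tdg has a near-identical copy on chromosome 15, Gm5806 (98.8% identity over 81.3% of the longest Tdg transcript, identical runs of up to 364 bases), with a mean of 2.41 FPKM, and a shorter one, Gm9855, with a mean of 0.0717 FPKM. Gm5806 held 2.40 to 2.66 FPKM in the libraries of 186wt and 2.03 to 2.35 FPKM in those of 456wt. The CV of the sum of Tdg and Gm5806 was 10.5% in 186wt and 10.4% in 456wt, about as wide as that of Tdg itself. Glt8d2, on the opposite strand, overlaps 367 bases of Tdg and had a mean of 2.26 FPKM. Its promoter window held 26 CpG and no motif match.

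The genes whose pattern over the 12 libraries was nearest were found by the root mean square (RMS) difference of centred log2(FPKM + 0.1) among the 14348 genes whose mean reached 1 FPKM. Nearest to Dnmt1 were the deoxycytidine kinase gene Dck (RMS 0.0264 on the log2 scale) and the ribosomal protein gene Rps20 (0.0328). For Uhrf1 they were Ccdc88c (0.0430) and E2f1 (0.0443), which encodes an E2F factor. For Dnmt3b they were the germ cell gene Rnf17 (0.0425) and Mcm5 (0.0467), which encodes a subunit of the replicative helicase. For Dnmt3a they were Cnot2 (0.0427) and Nudcd3 (0.0431), for Dnmt3l Mapk11 (0.186) and C630043F03Rik (0.195), and for Tet1 Zbtb32 (0.0806) and D630045J12Rik (0.0839). For Tet2 they were Impad1 (0.0464) and Cited1 (0.0487), for Tet3 Ppip5k2 (0.0488) and Wnk1 (0.0532), and for Tdg the reader gene Mbd1 (0.0773) and Mier2 (0.0854). Among themselves, Dnmt1, Uhrf1 and Dnmt3b were 0.0736 to 0.0809 apart. Many other genes were nearer: 423 genes were nearer to Dnmt1 than Uhrf1 was, and 72 were nearer to Dnmt3b than Uhrf1 was.

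The partners of these enzymes were read from 6 lists of 58 genes in all, which all passed the filter, and 44 passed the F-test (75.9%, against 58.2% of all genes tested). Of the 58, 55 had a mean of at least 1 FPKM and 42 of these passed, 76.4% against 75.8% of all genes at that level, so the partners passed about as often as genes of like expression. In 444wt 26 of the 58 were higher and 8 lower (of all genes tested, 26.5% and 17.8%, and of those of at least 1 FPKM, 35.4% and 23.1%). In 456wt 15 were higher and 12 lower (22.9% and 13.6%, 29.3% and 18.5%), in 186wt 8 and 19 (14.8% and 21.9%, 20.2% and 29.5%), and in 343wt 7 and 23 (14.5% and 25.6%, 19.7% and 33.8%).

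Of the 7 partners of maintenance, 5 were higher in 444wt by the contrast test and none was lower. Uhrf2 and Dppa3 did not pass there (adjusted p of the contrast test, 0.233 and 0.0530). Among all genes of at least 1 FPKM, 35.4% were higher and 23.1% lower in 444wt, and 75.8% passed the F-test. Of the 7, 6 passed the F-test (all but Uhrf2, the paralogue of Uhrf1, with 16.8 ± 0.906 FPKM and an adjusted p of 0.141), all 7 had their highest mean in 444wt (36.3% of all genes tested and 37.5% of those of at least 1 FPKM did), and the median log2 difference was 0.43 in 444wt and 0.12 in 456wt. Hells, the chromatin remodeller needed for methylation of repeats, was the highest with 129 ± 25.9 FPKM. Its mean was 106 FPKM in 186wt, 112 in 343wt, 163 in 444wt and 134 in 456wt. Its partner Cdca7 had 42.4, 45.3, 66.7 and 62.6 FPKM in the same order. Both were lower in 186wt and 343wt and higher in 444wt and 456wt by the contrast test. Dppa3, which keeps UHRF1 off chromatin, was the lowest (1.97 ± 0.615 FPKM) and had the widest range, with 1.26 FPKM in 343wt and 2.65 in 444wt (adjusted p of the limma F-test, 0.0436).

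Of the 8 genes of de novo methylation and germline silencing, 7 passed the F-test (all but Setd2; 75.8% of all genes of at least 1 FPKM passed), and 6 were higher and Gm14490 lower in 444wt, where 35.4% and 23.1% of those genes were. Trim28, the corepressor of KRAB zinc fingers, was the highest with 201 ± 18.9 FPKM. The widest ranges belonged to Zfp57, which guards imprints, with 2.96 FPKM in 343wt and 6.37 in both 444wt and 456wt, to Morc1, a silencer of transposons in male germ cells, with 9.89 FPKM in 186wt and 17.7 in 444wt, and to Tex15, a partner of the piRNA pathway, with 52.0 FPKM in 343wt and 90.4 in 444wt. Tex15 was lower in 456wt (61.6 FPKM, log2 difference -0.18 ± 0.02, adjusted p = 7.65e-05), where Dnmt3b and Morc1 were higher.

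Among 23 genes of demethylation and base excision, 18 passed the F-test (78.3%, near the 75.8% of all genes of at least 1 FPKM), and 10 were higher and 4 lower in 444wt, where 35.4% and 23.1% of those genes were. Parp1 was the highest with 139 ± 12.5 FPKM. Apobec2 was the lowest with a mean of 0.267 FPKM. The widest ranges were those of Apobec2 (0.12 to 0.333 FPKM between number means, adjusted p of the limma F-test, 0.132), of the 2-oxoglutarate producer Idh2, with 34.0 FPKM in 456wt against 17.4 in 186wt, and of Apobec3, a cytidine deaminase, with 15.2 FPKM in 444wt against 27.2 in 186wt. Of the other glycosylases on the list, Mbd4, Neil2, Neil3, Nthl1 and Ung were higher in 444wt, and Smug1 and Neil1 did not pass the F-test.

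Of the 9 genes listed as readers of methylated DNA or as their relatives, 5 passed the F-test. That was 55.6%, against 58.2% of all genes tested and 75.8% of those of at least 1 FPKM. Binding to methylated DNA was not measured. Mbd3 was the highest (65.5 ± 5.04 FPKM) and Zbtb4 the lowest (6.44 ± 0.679 FPKM), and the widest ranges were those of Mbd5, Zbtb33 and Mbd6. Mbd5 and Zbtb33 were highest in 444wt (14.3 and 17.8 FPKM), and Mbd6 in 186wt (41.9 FPKM). In the cycle that makes S-adenosylmethionine, the methyl donor, 8 of 10 genes passed the F-test (80.0%, against the same 75.8%). In 456wt 5 were lower and 1 higher. Of all genes tested 13.6% and 22.9% were, and of those of at least 1 FPKM 18.5% and 29.3%. The higher gene, Mat1a, and Gnmt, 1 of the lower, had means under 1 FPKM. Mat2a, which makes the donor outside the liver, was the highest with 177 ± 29.1 FPKM and had means of 208 in 186wt, 191 in 343wt, 168 in 444wt and 141 in 456wt, an order that Tdg alone had among the 9 genes, with overlapping libraries. Gnmt had 0.917 FPKM in 186wt and 343wt and 0.423 in 456wt, and the liver form Mat1a was the lowest with 0.164 ± 0.112 FPKM. Trdmt1, the homologue formerly called Dnmt2 that methylates tRNA, had 7.65 ± 0.62 FPKM and did not pass the F-test (adjusted p = 0.119).

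**Figure D4:**
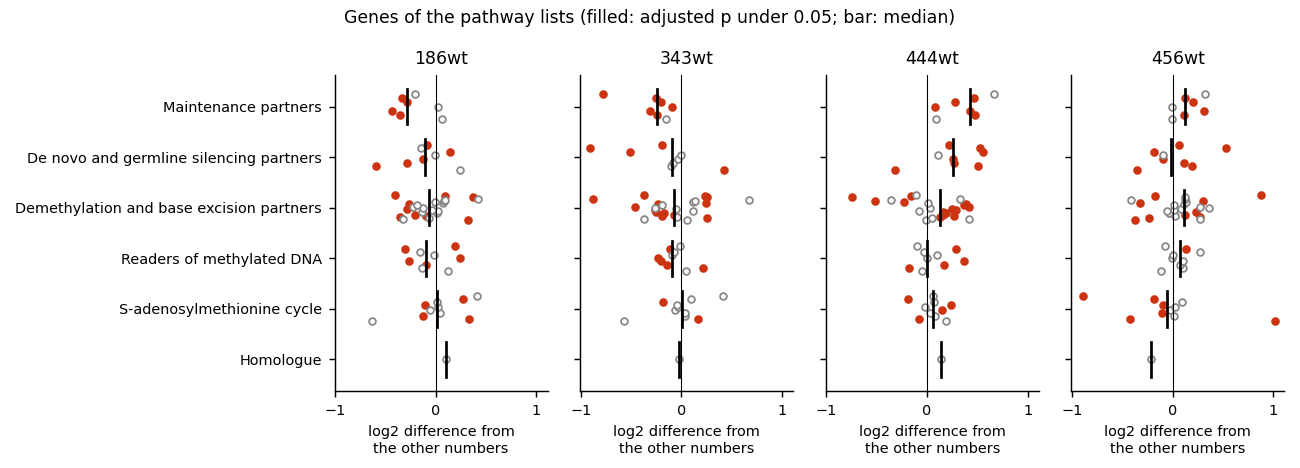
Log2 difference of each sample number from the mean of the others (horizontal axes) for the genes of the 6 partner lists (vertical axis; points, filled where the adjusted p is under 0.05; bars, list medians). The medians of the maintenance partners were -0.28 in 186wt, -0.24 in 343wt, 0.43 in 444wt and 0.12 in 456wt.

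Cell type markers moved between the numbers as well, and in bulk RNA fewer cells of a type and less RNA per cell cannot be told apart. Germ cell markers were present: the 9 genes of leptotene to zygotene cells had a median of 35.0 FPKM, led by Sycp3 and Sycp1, and Prm2, of late spermatids, was at 0 in all libraries. Sertoli markers were present too, although the label names spermatocytes. The 7 Sertoli genes had a median of 70.1 FPKM, led by Clu (1844 FPKM) and Cldn11. All 9 leptotene to zygotene genes and all 9 genes of DNA replication and the cell cycle had their highest mean in 444wt. Among all genes of at least 1 FPKM, 37.5% did. The summed level of the replication genes was 361 to 364 FPKM in 186wt, 362 to 368 in 343wt, 524 to 534 in 444wt and 468 to 474 in 456wt. The F-test passed in 8 of these 9, against 75.8% of all genes of at least 1 FPKM. The 5 differentiating spermatogonia genes, Stra8 and Sohlh1 the highest, summed to 209 to 219, 221 to 227, 346 to 355 and 285 to 289 FPKM in the same order of numbers. The leptotene to zygotene genes summed to 291 to 298, 238 to 240, 394 to 399 and 270 to 277 FPKM. Both the replication and the differentiating list were thus highest in 444wt and next in 456wt, as Dnmt1, Uhrf1 and Dnmt3b were, with 186wt and 343wt overlapping in the replication list, whereas in the leptotene to zygotene list 186wt was above 456wt. All 7 Sertoli genes passed the F-test, against the same 75.8%. They summed to 2955 to 2986 FPKM in 186wt, 3053 to 3078 in 343wt, 1677 to 1693 in 444wt and 1867 to 1882 in 456wt. Their sums were high in the numbers where Tet2 and Gm14490 were high.

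Most other lists had other orders. Undifferentiated spermatogonia genes summed to 94.8 to 95.7 FPKM in 186wt, 109.6 to 114 in 343wt, 132 to 133 in 444wt and 132 to 134 in 456wt. Single genes of this list differed from the sum: of 7, 2 had their highest mean in 444wt and 2 their lowest. The median of the genes was 13.7, 16.1, 13.5 and 14.8 FPKM in the same order of numbers. The 6 Leydig genes and the 5 macrophage genes had their highest sums in 343wt (110 to 111 and 25.7 to 26.4 FPKM) and their lowest in 444wt (15.4 to 17.4 and 5.67 to 6.28 FPKM), the endothelial genes their highest in 456wt (33.2 to 35.7 FPKM) and their lowest in 444wt (15.2 to 16.4). The myoid genes, led by Acta2 and Myl9, summed to 752 to 761 FPKM in 186wt and 380 to 381 in 343wt. They summed to 931 to 960 FPKM in 444wt and 1497 to 1521 in 456wt. The erythroid genes summed to 19.4 to 22.9, 57.9 to 59.05, 62.7 to 69.2 and 120 to 127 FPKM in the same order of numbers. In the undifferentiated, myoid and erythroid lists, every sum in 444wt and 456wt was thus above every sum in 186wt and 343wt. The same was true of the levels of Dnmt1, Uhrf1 and Dnmt3b. Pachytene genes summed to 39.8 to 65.2 FPKM over the 12 libraries and spermatid genes to 0.2 to 3.27 FPKM. The spermatid sum also had its highest mean in 444wt (2.48 FPKM) and its next in 456wt (1.13 FPKM). The libraries of 456wt overlapped there with those of 186wt and 343wt. The part of the cell makeup in the differences of the methylation genes was not tested.

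**Figure D5:**
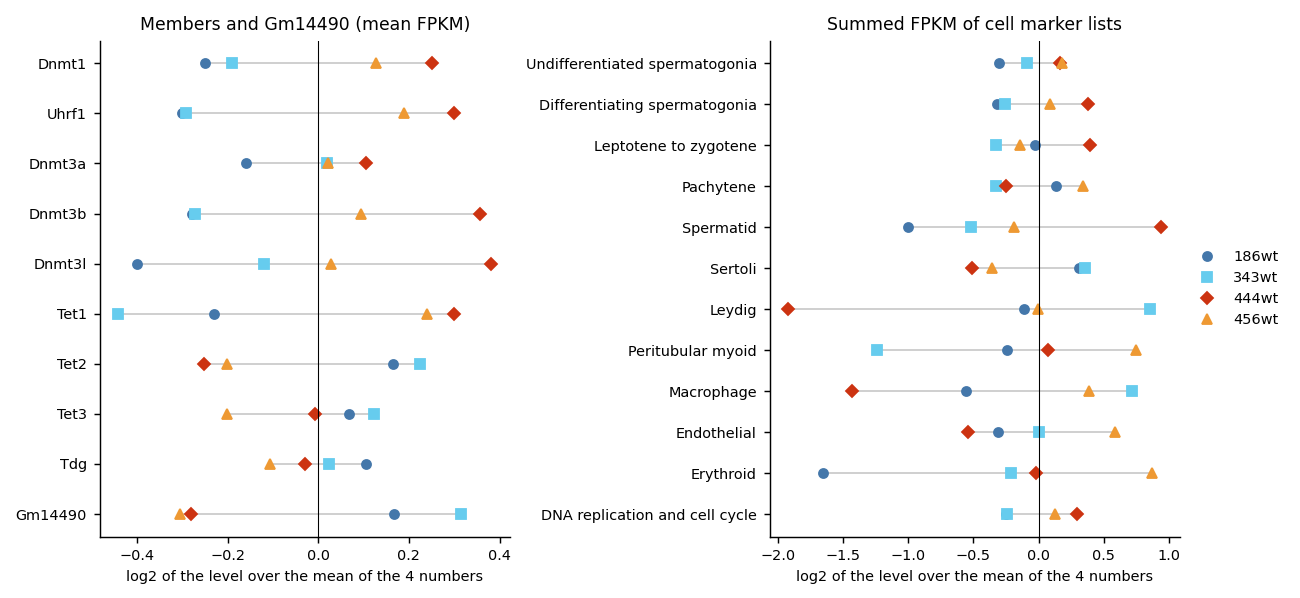
Mean FPKM of the 9 genes and Gm14490 (left) and summed FPKM of 12 marker lists (right) in each sample number, as log2 of the level over the mean of the 4 numbers (horizontal axes; symbols, sample numbers; the 2 axes have different ranges). Dnmt1, the differentiating spermatogonia list and the replication list are highest in 444wt and next in 456wt, and the Sertoli list is high in 186wt and 343wt.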

How the data were processed

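RNA-seq libraries of enriched B6 germ cells were analysed from 1 deposited table of FPKM values with a column for each of the 12 libraries, all of which were mapped by name. The authors used Bowtie 0.12.9 to align read pairs to transcripts of NCBI build 37 and RSEM 1.2.8 to compute FPKM, and the deposited FPKM are rounded to 2 decimals. RSEM divides reads between transcripts that fit equally well, so values of near-identical copies are less certain, and a strand setting is not given in the sources used here.

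From these values the 3 libraries of a sample number were averaged. Differences between numbers were tested with limma 3.58.1 (R 4.3.3, eBayes with trend) on log2(FPKM + 0.1) for genes whose mean reached 0.1 FPKM, with Benjamini-Hochberg adjustment over all of them; a fold on this scale understates that of low genes. Ratios were tested with exact permutation tests in Python 3.11.15. Copies were sought with BLAST 2.17.0 at 90% identity over 100 bases against GENCODE M1 transcripts. All 9 genes matched RefSeq promoters. Depth was estimated, in the absence of counts, from FPKM steps of 93 genes, and fragment numbers assume the longest transcript and cover counting error only. Alternatives were another pseudocount, other filters, scalings and variance models, a library-number block, and leaving out libraries or numbers.

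The members and lists were chosen with earlier results of these data known, and 1 gene of a partner list is not reported here. Genes were named by rule: the members, Gm14490, Trdmt1, in each partner list the highest, the lowest and the 3 widest ranges, the 2 nearest genes of each member, and the 2 highest genes of marker lists. The shares over genes of at least 1 FPKM use the calls adjusted over all genes and were added after the data were seen. Other list genes, copies and overlapping genes were named after their values were seen.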

Additional observations from a re-analysis of the deposited data

Results flagged for a closer look

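The 4 number means of 72 values (the 9 genes, their partners and the 5 ratios) were searched for a number far from the other 3, by Dixon's test. No methylation gene and no ratio was set apart, and 2 partner genes were, against about 3.6 that chance gives at this threshold. Mtr, which regenerates methionine, had 55.9 FPKM in 444wt against 46.6 to 48.2 FPKM in the other numbers. Ahcy, which removes S-adenosylhomocysteine, had 72.6 FPKM in 456wt against 78.0 to 78.2 FPKM.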

How the results depend on the processing

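The F-test called 7 of the 9 genes, and 6 to 8 when libraries or a whole number were left out. The called members were 5 in 186wt (4 to 8), 6 in 343wt (5 to 6), 6 in 444wt (5 to 7) and 6 in 456wt (3 to 6), those ranges again over left-out libraries and numbers. The extremes of 8 in 186wt and 3 in 456wt came without the libraries of 343wt. The order of the levels kept 8 of 8 steps in every alternative except without 186wt, which kept 7. The number of called partner genes, 44, was 32 to 44 when libraries or a number were left out and 38 without a filter. Of the 5 ratios 4 were called, and 3 to 4 when libraries or a number were left out. No value changed its direction past the threshold. Dnmt3l in 444wt passed with a pseudocount of 1 (adjusted p = 0.0427) and with a minimum of 1 FPKM (0.0481), Dnmt3a in 444wt did not pass without a filter (0.051), and Tet1 in 186wt passed without a variance trend (0.0452). Without a filter 28.6% of 37620 genes passed the F-test.

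Library numbers did not pair the libraries: the correlation of deviations over 14348 genes was -0.0648 to 0.128 in 18 same-numbered pairs, with 1 above 0.1, and -0.128 to 0.0835 in the others. With a replicate block, 7 members and 43 partner genes passed the F-test, and the called members were 5 in 186wt, 6 in 343wt, 7 in 444wt and 6 in 456wt. The block added Dnmt3l in 444wt (adjusted p = 0.0346) and ended the calls of Gm14490 in 444wt (0.0585) and of the ratio of Tet2 to Tet3 (0.0564), leaving 3 ratios. With a pseudocount of 1 that ratio had 0.0631.

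Depth limited Dnmt3l and Gm14490, with medians of about 32 and 46 fragments per library, more than the other genes.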
